A study of Mus musculus with 6 samples.

Results

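Transcripts of matrix metalloproteinases (MMPs) and of their tissue inhibitors (TIMPs) were followed in aortic endothelial cells (EC) that overexpressed the homeobox transcription factor Meis1. The 10 genes described are Mmp2, Mmp3, Mmp9, Mmp10, Mmp12, Mmp13, Mmp14, Timp1, Timp2 and Timp3, selected by symbol from the 54429 genes of the deposited count table. Mmp3 was chosen by its measured fall in Meis1-OE EC, and the others as its chromosome neighbours, its family and its inhibitors. The EC were purchased primary cells from the aorta of adult wild-type C57BL/6 mice and were grown on gelatin. They were transduced with a lentiviral vector that carried Meis1 together with YFP (Meis1-OE, 3 libraries) or with a control vector that carried YFP without Meis1 (YFP-CTRL, 3 libraries). In both groups, 100000 EC per well were transduced for 48 h, cells positive for YFP, CD31 and VEC were sorted at 72 h, and the sorted cells were re-plated and expanded to confluency. RNA was taken from 300000 cells, and 300 to 400 ng was used for ribodepleted RNA-seq. No untransduced EC were among the libraries analysed here, so every cell compared had been infected, sorted and expanded, and the added Meis1 came from a vector. Libraries are named by the letter of their column in the deposited table, and sets of 3 values are given in the order A, B and C.

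MMPs are zinc-dependent endopeptidases, most of them secreted as inactive proenzymes, that cleave collagens, laminins, proteoglycans and other proteins of the extracellular matrix. TIMPs bind the active site of MMPs and block them, so that the activity of a tissue depends on proenzyme, activator and inhibitor together, none of which RNA counts measure as protein. EC use MMPs to open the basement membrane during sprouting and to shed proteins from the cell surface, and transcription of several MMP genes is known to be induced by growth factors and cytokines through AP-1 factors, dimers of Fos and Jun proteins.

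Mmp3, Mmp10, Mmp12 and Mmp13 lie in a single cluster of 10 MMP genes on chromosome 9, which RefSeq gives on GRCm38.p6 in the order Mmp13, Mmp12, Mmp1b, Mmp3, Mmp1a, Mmp10, Mmp8, Mmp27, Mmp20 and Mmp7. Mmp3 spans chr9:7445822-7455975. The start of Mmp13 lies 173.3 kb before that of Mmp3, the start of Mmp12 101.4 kb before it and the start of Mmp10 56.5 kb after it. The other members lie elsewhere in the genome (Mmp2 on chromosome 8, Mmp9 on 2, Mmp14 on 14, Timp1 on X, Timp2 on 11 and Timp3 on 10).

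The 120 bases before the RefSeq start are shown here for 6 of the 7 cluster genes with an AP-1 motif, because this is a sequence feature that the choice of genes did not use. They are written 5′ to 3′ on the strand of the gene. Capitals mark the AP-1 motif, searched as TGAGTCA on both strands (TGACTCA is its reverse complement), and the TATA box, searched as TATAAA on the sense strand. For Mmp12, the second of the RefSeq starts in the table is shown, since the first held neither motif. Mmp1a and Mmp1b, the mouse counterparts of interstitial collagenase, are included as cluster genes on either side of Mmp3. The seventh, Mmp7, also held both motifs and had 0 counts in every library.
Mmp13 (chr9:7272394-7272513, plus strand): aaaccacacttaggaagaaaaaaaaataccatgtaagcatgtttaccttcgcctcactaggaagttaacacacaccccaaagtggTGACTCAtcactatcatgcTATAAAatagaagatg
Mmp12 (chr9:7347254-7347373, plus strand): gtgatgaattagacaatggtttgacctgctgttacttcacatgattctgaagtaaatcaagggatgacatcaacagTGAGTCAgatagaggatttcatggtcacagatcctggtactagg
Mmp1b (chr9:7388027-7388146, minus strand): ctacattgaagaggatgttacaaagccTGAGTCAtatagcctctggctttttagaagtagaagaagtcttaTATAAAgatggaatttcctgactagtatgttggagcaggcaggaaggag
Mmp3 (chr9:7445702-7445821, plus strand): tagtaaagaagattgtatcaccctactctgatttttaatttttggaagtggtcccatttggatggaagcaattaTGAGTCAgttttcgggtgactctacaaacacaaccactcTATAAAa
Mmp1a (chr9:7464021-7464140, plus strand): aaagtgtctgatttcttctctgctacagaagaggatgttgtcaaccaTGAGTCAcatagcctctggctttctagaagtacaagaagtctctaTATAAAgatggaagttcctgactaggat
Mmp10 (chr9:7502222-7502341, plus strand): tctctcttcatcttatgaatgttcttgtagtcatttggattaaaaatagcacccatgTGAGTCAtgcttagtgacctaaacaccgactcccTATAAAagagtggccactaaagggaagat

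In the 250 bases before the start, the AP-1 motif occurred in 7 of the 10 cluster genes, in 0 of the 8 MMP genes outside the cluster that had a window, in 0 of the 4 Timp genes and in 5.16% of all 27025 genes with a window. It lay 46 to 40 bases before the start in Mmp3, 63 to 57 bases in Mmp10, 44 to 38 bases in Mmp12 and 35 to 29 bases, on the other strand, in Mmp13. The TATA box occurred in 7 of the 10 cluster genes and in 8.94% of all genes. The letters TGACAG, the core of the motif bound by Meis proteins, occurred on either strand in 0 of the 8 members with a window, in 2 of the 10 cluster genes and in 18% of all genes. The windows of Timp1 and Timp2, printed for contrast, held none of the 3 motifs, and their last 120 bases were 65% and 75% G or C against 35.8% in Mmp3.
Timp1 (chrX:20870046-20870165, plus strand): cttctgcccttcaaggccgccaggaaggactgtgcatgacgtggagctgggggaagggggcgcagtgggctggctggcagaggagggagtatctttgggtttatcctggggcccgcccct
Timp2 (chr11:118355412-118355531, minus strand): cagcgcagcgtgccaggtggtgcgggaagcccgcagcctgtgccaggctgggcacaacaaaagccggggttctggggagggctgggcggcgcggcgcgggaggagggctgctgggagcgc
A match says only that these letters stand in the window, and binding was not measured in these libraries. Only exact letters were searched, so a window without a match may still hold a variant of the motif. The TATA box lay 7 to 2 bases before the start in Mmp3 and 29 to 24 bases in Mmp10, so positions hold for the RefSeq start only. No window was used for Mmp2 and Mmp9.

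The libraries held between 34176592 and 47956569 counts. Meis1 had 135325, 157828 and 149221 counts in Meis1-OE and 39, 58 and 85 in YFP-CTRL, as the labels state, with reads of the vector and of the endogenous gene not separated. Levels are given as TMM-normalized CPM (counts scaled to library size), and groups were compared with edgeR's quasi-likelihood test over the 16065 genes that passed its filter on low counts, with Benjamini-Hochberg adjustment and a threshold of 0.05. Of these genes, 4.14% were higher in Meis1-OE EC (665 genes) and 2.73% lower (438 genes). Without overlap between the groups, 17.2% of genes lay higher and 15.9% lower, whatever their p. At an unadjusted p under 0.05, 12.8% lay higher and 13.4% lower, and DESeq2 called 6.18% higher and 6.13% lower of 18187 genes. The YFP-CTRL libraries were less alike than the Meis1-OE libraries, and the mean log2 CPM of 15 proliferation genes was 4.12, 5.16 and 6.47 in YFP-CTRL A, B and C against 6.48 to 6.56 in Meis1-OE. A fit with this mean as a covariate (the proliferation score) takes its slope mainly from the YFP-CTRL libraries. Score and group are not fully separable there, so its estimates are not effects freed of proliferation. The 10 EC markers summed to 3310 to 4148 CPM in Meis1-OE and 4414 to 6061 CPM in YFP-CTRL EC, with 1 that rose (Vwf, log2 fold change 3.12, adjusted p = 0.0120) and 1 that fell (Tek, -0.78, adjusted p = 0.0351), while Cdh5 (-0.70, adjusted p = 0.0535) and Kdr (-1.23, adjusted p = 0.0504) lay lower without overlap. Of 12 macrophage and neutrophil markers, 5 were at 0 in all libraries and 3 were tested, of which 0 passed in edgeR (2 higher at an unadjusted p under 0.05) and 0 in DESeq2. Cd68 was at 64.7 to 140 CPM, Lyz2 at 0.131 to 0.881 CPM and Csf1r at 0.0294 to 0.573 CPM, both of the latter with a log2 fold change of 1.63 (adjusted p = 0.181 and 0.148).

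Of the 10 members, 9 passed the filter and were tested, Mmp9 being too low. Besides Mmp3, 2 members fell (Mmp10 and Mmp13) and 1 rose (Timp1). The other 5 did not pass the test. The groups did not overlap for Mmp3, Mmp10, Mmp13 and Timp2, which lay lower in Meis1-OE EC, and for Timp1, which lay higher. For Mmp3 this restates the fall that it was chosen by. Among all 16065 tested genes, 15.9% lay lower and 17.2% higher without overlap, and edgeR called 2.73% lower and 4.14% higher. The plot of CPM by library shows the members side by side.

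**Figure D1:**
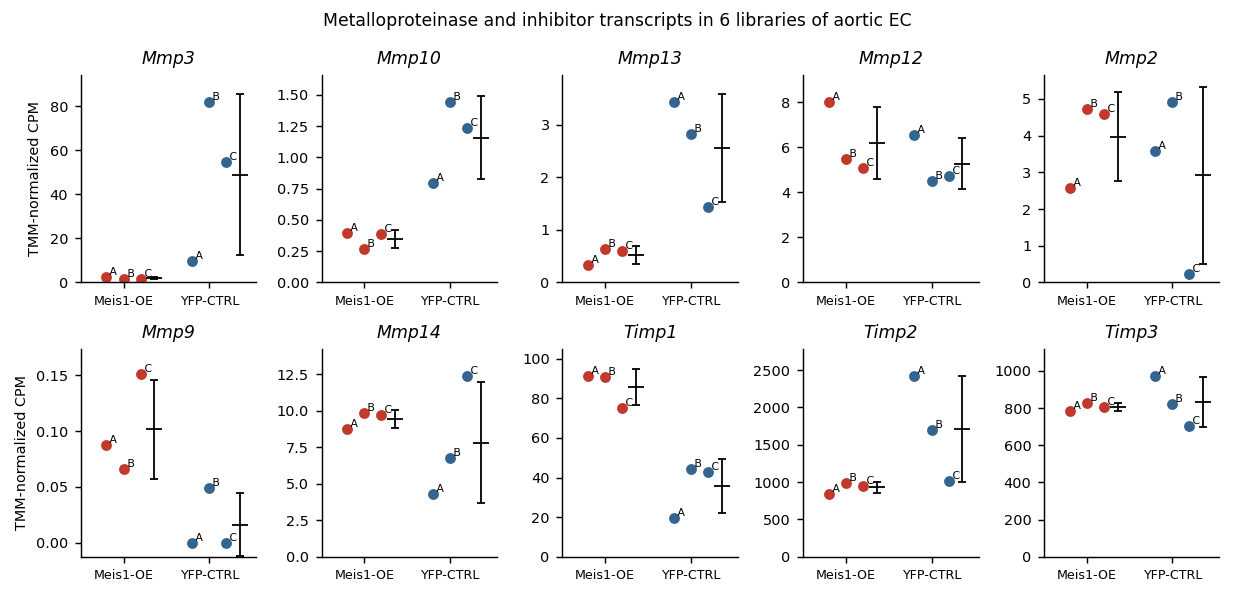
TMM-normalized CPM (y axis, a separate linear scale for each gene) of the 10 members in the 3 Meis1-OE libraries (red) and the 3 YFP-CTRL libraries (blue), with library letters and the mean ± SD in black. All Meis1-OE points lie below the YFP-CTRL points for Mmp3, Mmp10, Mmp13 and Timp2 and above them for Timp1.

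Mmp3 encodes stromelysin, a protease with broad specificity for matrix proteins that also activates other MMP proenzymes. Mmp3 had 120, 73 and 79 counts in Meis1-OE and 336, 3345 and 2492 in YFP-CTRL. All 3 Meis1-OE libraries lay below every YFP-CTRL library, and the lowest YFP-CTRL library (A) was 3.77-fold above the highest Meis1-OE library (A) in CPM. Mean levels were 1.98 ± 0.561 CPM with Meis1-OE and 48.9 ± 36.4 CPM with YFP-CTRL (SD, n = 3), a log2 fold change of -4.63 (standard error 0.75). No test is given for Mmp3, since these values are the ones it was chosen by. The next largest fall among the genes that averaged at least 5 CPM and passed the test was that of Dhrs9 (log2 fold change -3.19). Over all 16065 tested genes, with no minimum level, Mmp3 ranked 3 from the lowest.

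The size of the difference in Mmp3 depended on the control library. The highest YFP-CTRL value was 8.25-fold the lowest, whereas the Meis1-OE libraries differed by 1.61-fold. Without YFP-CTRL library A the log2 fold change was -5.12, and without library B it was -4.02. The SD of log2 CPM of Mmp3 was 0.38 in Meis1-OE and 1.62 in YFP-CTRL, against medians of 0.12 and 0.29 over all tested genes. The median SDs of the 9 tested members, Mmp3 included, were 0.29 and 0.65. The first is the value of Mmp10, which had 12 to 18 counts in Meis1-OE. Members were not compared with genes of like count.

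The summed level of 10 markers of fibroblasts and smooth muscle lay lower in Meis1-OE EC, as Mmp3 did, but the markers did not move one way. The sum was 15.8 to 17.8 CPM in Meis1-OE and 34.9 to 54.2 CPM in YFP-CTRL EC, and of the 3 that were tested, 0 passed in edgeR (1 at an unadjusted p under 0.05 and 1 in DESeq2). The largest part of the sum came from Pdgfra in 5 of the 6 libraries and from Acta2, at 19.9 CPM, in YFP-CTRL C. Pdgfra lay at 11.7 to 11.9 CPM against 15.6 to 49.1 CPM (log2 fold change -1.47, standard error 0.37, adjusted p = 0.0598 by edgeR). Pdgfrb lay the other way, at 2.49 ± 0.411 CPM with Meis1-OE and 1.70 ± 0.704 CPM with YFP-CTRL (SD, n = 3; log2 fold change 0.55, adjusted p = 0.344 by edgeR). Acta2 overlapped, at 0.993 to 3.33 CPM in Meis1-OE and 0.206 to 19.9 CPM in YFP-CTRL EC. Col1a1, Col1a2, Col3a1 and Dcn, which define fibroblasts, reached at most 13 counts in any library, and Lum was at 0 in all. In bulk RNA, fewer expressing cells and less RNA per cell cannot be told apart. The part of these markers in the fall was not tested. With the proliferation score in the fit, the log2 fold change of Mmp3 was -5.58.

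Mmp10, which encodes the second stromelysin, had 18, 12 and 18 counts in Meis1-OE and 27, 59 and 56 in YFP-CTRL. Every Meis1-OE library lay below every YFP-CTRL library. Mmp10 fell from 1.16 ± 0.332 CPM to 0.349 ± 0.0733 CPM (SD, n = 3), a log2 fold change of -1.73 (standard error 0.34, adjusted p = 0.0320 by edgeR).

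Mmp13, which encodes the main rodent interstitial collagenase, had 15, 29 and 28 counts in Meis1-OE and 117, 115 and 65 in YFP-CTRL. The groups did not overlap, but the highest YFP-CTRL library was A, in which Mmp3 and Mmp10 were lowest among the controls. Mmp13 fell from 2.56 ± 1.03 CPM to 0.524 ± 0.170 CPM (SD, n = 3), a log2 fold change of -2.28 (standard error 0.42, adjusted p = 0.0252 by edgeR). The calls of Mmp10 and Mmp13 were lost when any Meis1-OE library or YFP-CTRL library B was left out. Over all tested genes, 438 were lower with every library in. That count fell to 68, 16 and 18 without Meis1-OE A, B and C and to 66 without YFP-CTRL B. For Mmp10 the adjusted p was then 0.0991, 0.177 and 0.139 without Meis1-OE A, B and C and 0.120 without YFP-CTRL B. For Mmp13 it was 0.0900, 0.113, 0.111 and 0.100 in the same order, with log2 fold changes between -2.58 and -2.03 over all 6 libraries left out. With the proliferation score in the fit, which is not fully separable from group, Mmp13 also lost its call (-1.52, adjusted p = 0.0840).

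Mmp12, the macrophage elastase gene, had 367, 249 and 235 counts in Meis1-OE and 223, 184 and 214 in YFP-CTRL, after rounding of estimates that were not whole. The groups overlapped in CPM. Mean levels were 6.20 ± 1.60 CPM with Meis1-OE and 5.26 ± 1.13 CPM with YFP-CTRL (SD, n = 3), and it did not pass the test (log2 fold change 0.24, standard error 0.25, adjusted p = 0.578 by edgeR). Thus within the cluster Mmp3, Mmp10 and Mmp13 were lower in Meis1-OE EC while the estimate for Mmp12, which stands between Mmp13 and Mmp3, was above 0.

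Counting could blur the neighbours, since the coding sequences of Mmp3 and Mmp10 were identical at 78.9% of aligned bases and shared a stretch of 104 identical bases. Mmp3 was 60.5% identical to Mmp12 and 60.7% to Mmp13, with no shared stretch over 18 bases. The handling of reads that fit more than one gene is not given in the sources used here, so the low counts of Mmp10 beside the abundant Mmp3 reads of YFP-CTRL EC remain uncertain. Counts of Mmp3, Mmp10 and Mmp13 were whole in all 6 libraries (within 0.01).

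Among the remaining cluster genes, only Mmp1a passed the filter. It had 10, 20 and 12 counts in Meis1-OE and 5, 38 and 40 in YFP-CTRL, and it did not pass the test (log2 fold change -1.11, standard error 0.64, adjusted p = 0.312 by edgeR). Mmp1b reached at most 8 counts, Mmp8, Mmp20 and Mmp27 at most 1 count, and Mmp7 was at 0. The nearest tested genes on either side of the cluster did not pass with all libraries in. Tmem123 and Birc2 lay higher and Dcun1d5 and Pdgfd lower without overlap, as did 17.2% and 15.9% of all tested genes. Without YFP-CTRL C, Pdgfd passed (log2 fold change -0.40, adjusted p = 0.0254 by edgeR), in a fit that called 2498 of 16443 genes lower. Pdgfd, Dync2h1 and Dcun1d5 before it had log2 fold changes of -0.29, -0.06 and -0.28 (adjusted p 0.221, 0.792 and 0.191), and Tmem123, Birc2 and Birc3 after it had 0.35, 0.26 and 0.28 (adjusted p 0.151, 0.259 and 0.439).

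**Figure D2:**
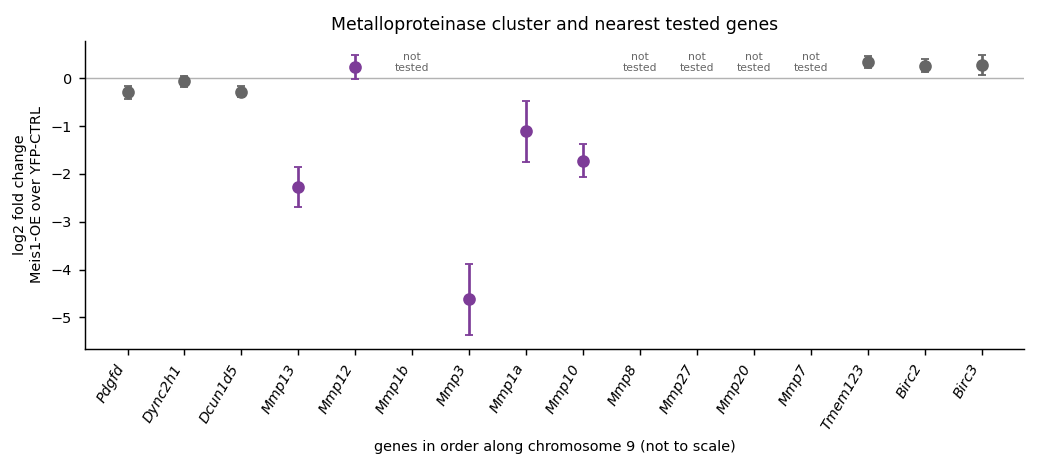
Log2 fold change of Meis1-OE over YFP-CTRL (y axis, bars show the standard error) for the MMP cluster (purple) and the 3 nearest tested genes on each side (grey), in gene order along chromosome 9 and not to scale. Mmp3, Mmp13 and Mmp10 lie furthest below 0, Mmp12 lies at 0.24, and the 6 outer genes lie between -0.29 and 0.35.

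The gelatinases degrade type IV collagen and denatured collagen. Mmp2 had 118, 215 and 213 counts in Meis1-OE and 122, 201 and 11 in YFP-CTRL. A single control library, C, lay far below the others, while YFP-CTRL B was the highest of all 6 libraries in CPM. Mmp2 did not pass the test (log2 fold change 0.45, standard error 0.80, adjusted p = 0.764 by edgeR), and without YFP-CTRL C its log2 fold change was -0.12. With the proliferation score in the fit it was 2.61 (adjusted p = 0.231). Mmp9 had 4, 3 and 7 counts in Meis1-OE and 0, 2 and 0 in YFP-CTRL, which is too low for a comparison at this depth.

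Mmp14 encodes a membrane-anchored protease that activates the Mmp2 proenzyme in a complex with Timp2. It had 400, 447 and 450 counts in Meis1-OE and 146, 276 and 563 in YFP-CTRL. The 3 Meis1-OE libraries lay within the range of the controls. The means were 9.44 ± 0.599 CPM and 7.82 ± 4.15 CPM (SD, n = 3), and Mmp14 did not pass the test (log2 fold change 0.27, standard error 0.35, adjusted p = 0.669 by edgeR). Given the proliferation score as a covariate, the estimate was -0.41, and without YFP-CTRL A it was -0.03.

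Timp1, an inducible secreted inhibitor, had 4172, 4114 and 3471 counts in Meis1-OE and 670, 1812 and 1953 in YFP-CTRL. The lowest Meis1-OE library was 1.69-fold above the highest YFP-CTRL library in CPM. Timp1 rose from 35.7 ± 13.9 CPM to 85.6 ± 9.24 CPM (SD, n = 3), a log2 fold change of 1.26 (standard error 0.30, adjusted p = 0.0495 by edgeR). The call lay at the threshold and was lost under 9 of 15 other settings, with adjusted p up to 0.207, although the log2 fold change remained between 0.77 and 1.46. The adjusted p was 0.154, 0.195 and 0.146 without Meis1-OE A, B and C and 0.114 without YFP-CTRL B. Genes called higher over the whole table also fell, from 665 to 329, 115, 126 and 204 in the same order.

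Timp2, which besides inhibiting MMPs takes part in activating Mmp2, had 38706, 45056 and 44127 counts in Meis1-OE and 82269, 69264 and 45995 in YFP-CTRL. The lowest YFP-CTRL library (C) was 1.02-fold the highest Meis1-OE library in CPM, so that the groups barely separated. The means were 931 ± 75.4 CPM and 1711 ± 705 CPM (SD, n = 3), and Timp2 did not pass the test (log2 fold change -0.88, standard error 0.29, adjusted p = 0.112 by edgeR). It passed when YFP-CTRL C was left out (-1.15, adjusted p = 0.00315) and in DESeq2's Wald test (-0.89, adjusted p = 0.0301). Without YFP-CTRL C, 2498 of 16443 tested genes were called lower, against 438 of 16065 with all libraries. Given the proliferation score as a covariate, the estimate was -0.11.

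Timp3, an inhibitor held in the matrix, had 35921, 37493 and 37313 counts in Meis1-OE and 33041, 33439 and 31983 in YFP-CTRL. Its CPM values overlapped, with means of 806 ± 20.1 and 832 ± 135 (SD, n = 3) and a log2 fold change of -0.05 (standard error 0.14, adjusted p = 0.868 by edgeR). Timp4 reached at most 3 counts and was not detectable.

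Of the 17 further MMP and TIMP genes of the table, 7 were tested and 0 passed in edgeR, with 0 at an unadjusted p under 0.05 and 0 in DESeq2. Among all genes, edgeR called 4.14% higher and 2.73% lower. Mmp15, a membrane-type MMP, had the highest estimate. It had 2011, 2833 and 3178 counts in Meis1-OE and 221, 652 and 2137 in YFP-CTRL (log2 fold change 1.33, standard error 0.62, adjusted p = 0.226). The control libraries spanned 7.18-fold, and without YFP-CTRL C the log2 fold change was 2.35 (adjusted p = 0.00712). Mmp17 (0.38, adjusted p = 0.466), Mmp19 (0.26, adjusted p = 0.750), Mmp28 (-0.24, adjusted p = 0.789), Mmp11 (-0.29, adjusted p = 0.581) and Mmp24 (-0.86, adjusted p = 0.327) had smaller log2 fold changes. Without YFP-CTRL C, Mmp14 (0.75, adjusted p = 0.0427) and Mmp11 (-0.59, adjusted p = 0.0445) also passed. That fit called far more genes of any kind, 2717 higher and 2498 lower of 16443 tested. With all libraries it was 665 higher and 438 lower of 16065. The plot of fold changes by gene shows all 16 tested MMP and TIMP genes.

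**Figure D3:**
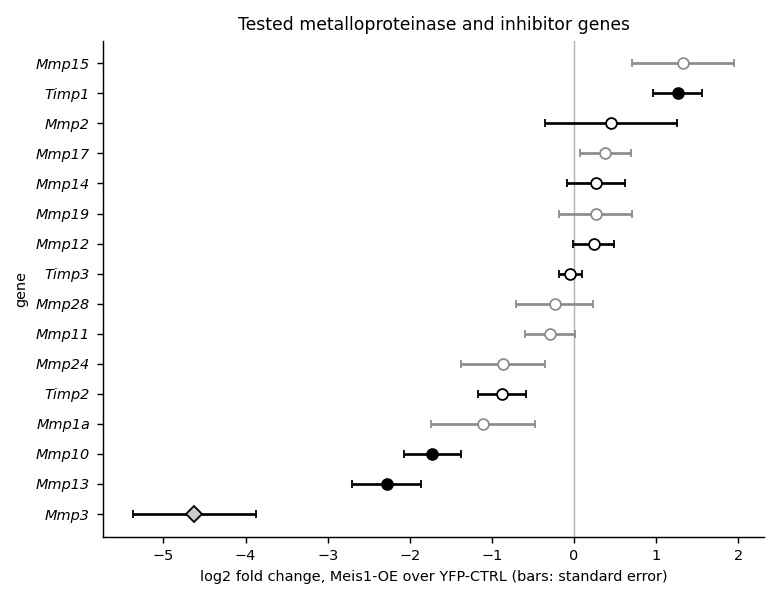
Log2 fold change of Meis1-OE over YFP-CTRL (x axis, bars show the standard error) of the 16 tested MMP and TIMP genes, with members in black and other family genes in grey; filled circles have an adjusted p under 0.05 and the grey diamond is Mmp3, shown without a test. Mmp3, Mmp13 and Mmp10 lie at -4.63, -2.28 and -1.73, and Timp1 lies at 1.26.

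Levels of different genes were compared as CPM per kilobase of exon (the union of a gene's exons). Timp2 had the highest level of the 10 members in both groups, at 239 ± 19.4 in Meis1-OE and 439 ± 181 in YFP-CTRL EC (SD, n = 3). Timp3 followed at 98.9 ± 2.47 and 102 ± 16.5, and Timp1 at 96.4 ± 10.4 and 40.2 ± 15.6. In Meis1-OE EC the levels of Timp3 and Timp1 did not differ beyond their spread on this scale, but per kilobase of the longest transcript Timp3 was at 171 and Timp1 at 96.9. All MMP members lay below these. Mmp14 (3.63 ± 0.231), Mmp2 (1.31 ± 0.397) and Mmp3 (1.10 ± 0.312) came next in Meis1-OE EC, followed by Mmp12 (0.856 ± 0.221). Mmp2 overlapped Mmp3 in spread, and so did Mmp12, which per kilobase of the longest transcript was at 1.38 and above both. In YFP-CTRL EC Mmp3 was the highest MMP of the 10, at 27.2 ± 20.2, and was followed by Mmp14 at 3.01 ± 1.60. The levels of Mmp2, Mmp13, Mmp12 and Mmp10 in YFP-CTRL EC lay between 0.67 and 0.96 and could not be ordered within their spread. Mmp9 was last in both groups.

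Shares of the summed level are given by library, and those of Mmp3 restate the fall that it was chosen by. Mmp3 was the most abundant MMP in all YFP-CTRL libraries except A, where Mmp11 was. Mmp3 gave 20.1%, 59.4% and 54.8% of the CPM per kilobase summed over all 23 MMP genes in the YFP-CTRL libraries and 5.31%, 2.56% and 2.60% in the Meis1-OE libraries. Mmp15 gave 36.8% to 43.3% of that sum in Meis1-OE and 4.79% to 19.4% in YFP-CTRL EC. The sum itself was 27.5, 34.9 and 36.5 in the Meis1-OE libraries against 27.4, 76.8 and 55.6 in the YFP-CTRL libraries. YFP-CTRL A, which had the least Mmp3 of the controls, had about the same sum as Meis1-OE A. Timp1 gave 19.7% to 24.7% of the sum over the 4 Timp genes in Meis1-OE and 2.91% to 12.3% in YFP-CTRL EC, where Timp2 made up 65.8% to 81.4%. The summed Timp level was 11.7 to 15.2 times the summed MMP level in Meis1-OE EC and 27.9, 7.64 and 7.09 times in YFP-CTRL A, B and C, so that this ratio overlapped between the groups. These shares are descriptions with no test and rest on transcript lengths matched by symbol.

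**Figure D4:**
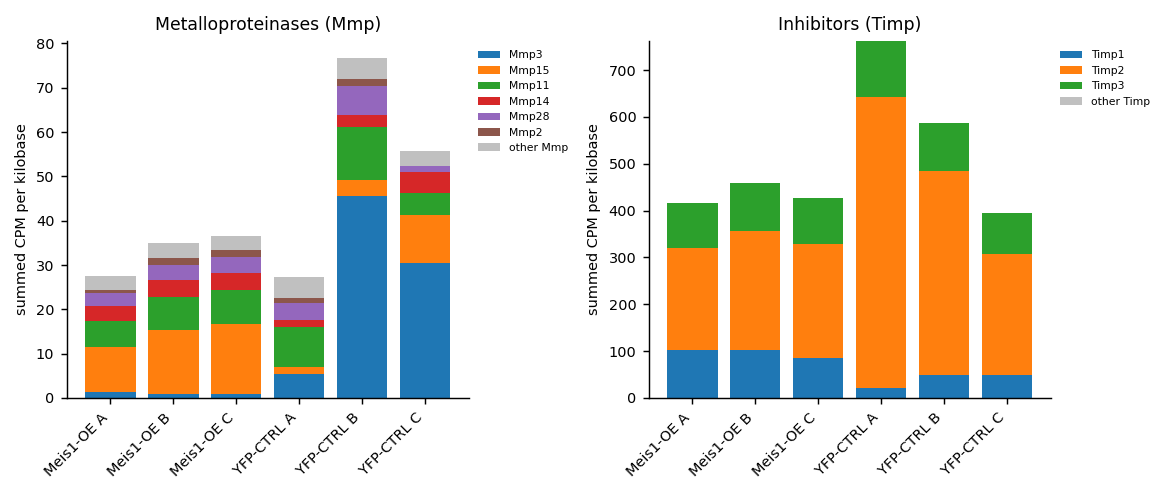
CPM per kilobase of exon, stacked by gene, for all MMP genes (left) and all TIMP genes (right) in each of the 6 libraries. Mmp3 makes up most of the MMP bar in YFP-CTRL B and C and under 6% of it in each Meis1-OE library, where Mmp15 is the thickest segment, and Timp2 is the thickest TIMP segment throughout.

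Proteins that switch MMPs on or hold them in check include plasminogen activators and their receptor, proprotein convertases and cell surface inhibitors. Of 13 listed genes, 10 were tested, 0 rose and 1 fell in edgeR, with a median log2 fold change of 0.25 against 0.01 over all tested genes. An unadjusted p under 0.05 was found for 1 gene that was higher and 1 that was lower, against 12.8% and 13.4% over all tested genes. DESeq2 called 0 higher and 1 lower. Among all genes, edgeR called 4.14% higher and 2.73% lower, and DESeq2 6.18% and 6.13%. Plaur, the urokinase receptor, had 7309, 6608 and 6894 counts in Meis1-OE and 11195, 17540 and 10806 in YFP-CTRL, and fell (log2 fold change -1.13, standard error 0.21, adjusted p = 0.0242 by edgeR). Plaur lost its call under 5 of 15 other settings.

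AP-1, Ets and NF-κB factors and the cytokines upstream of them are known inducers of MMP genes. Of 18 such genes, 15 were tested, 0 rose and 1 fell in edgeR, with a median log2 fold change of -0.09. An unadjusted p under 0.05 was found for 5 genes, all lower, against 13.4% lower over all tested genes, and DESeq2 called 3 lower and 0 higher. The shares called lower among all genes were 2.73% in edgeR and 6.13% in DESeq2. The gene that fell was Fosl1, which encodes the AP-1 subunit Fra-1. Fosl1 had 8077, 7366 and 7594 counts in Meis1-OE and 15682, 24137 and 10840 in YFP-CTRL (log2 fold change -1.36, standard error 0.30, adjusted p = 0.0423 by edgeR), and it lost its call under 8 of 15 settings.

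ADAM and ADAMTS proteases are relatives of MMPs that shed surface proteins and cut proteoglycans, and several are inhibited by Timp3. Of 17 genes, 14 were tested, 1 rose and 1 fell, with a median log2 fold change of -0.35. An unadjusted p under 0.05 was found for 2 that were higher and 4 that were lower, against 12.8% and 13.4% over all tested genes. DESeq2 called 1 higher and 3 lower. Among all genes, edgeR called 4.14% higher and 2.73% lower, and DESeq2 6.18% and 6.13%. Adamts12 rose (0.74, standard error 0.15, adjusted p = 0.0343 by edgeR) and Adamts1, which cleaves versican and aggrecan, fell (-0.95, standard error 0.22, adjusted p = 0.0489). Adamts1 lost its call under 11 of 15 settings.

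Of 12 genes for basement membrane and matrix substrates of MMPs, 11 were tested, 2 rose and 4 fell, with a median log2 fold change of -0.31. Both an unadjusted p under 0.05 and DESeq2 gave 2 higher and 5 lower. Over all tested genes, 12.8% were higher and 13.4% lower at that unadjusted p, while edgeR called 4.14% and 2.73% and DESeq2 called 6.18% and 6.13%. Fn1, the fibronectin gene, rose (0.85, standard error 0.18, adjusted p = 0.0376 by edgeR), from 65494 to 109627 counts in YFP-CTRL to 147966 to 188579 counts in Meis1-OE EC. The laminin chain genes Lama4 (-1.75, adjusted p = 0.0428), Lamb1 (-0.99, adjusted p = 0.0326) and Lamc1 (-0.66, adjusted p = 0.0465) fell, as did Col18a1, which encodes the collagen from which endostatin is cut (-0.68, adjusted p = 0.0148). Lama4 had 36 to 204 counts per library. All 9 genes named from these 4 lists lost their call when Meis1-OE A, B or C or YFP-CTRL B was left out, with adjusted p between 0.0554 and 0.221, and none changed direction under the 15 settings. Over all tested genes, these leave-out fits called only 115 to 329 higher and 16 to 68 lower. With all libraries it was 665 and 438, so lost calls were not particular to these genes.

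The profiles most like that of Mmp3 over the 6 libraries were sought among 10222 genes with a mean of at least 5 CPM, by the root mean square difference of log2 CPM centred on each gene's mean. The 5 closest were Ptgfr (difference 1.06), Gm49339 (1.07), Ube2ql1 (1.21), Lilrb4a (1.23) and Cyp26b1 (1.25). Ptgfr, the prostaglandin F receptor gene, had 90, 52 and 71 counts in Meis1-OE and 104, 349 and 879 in YFP-CTRL, and like Mmp3 it was lowest in library A among the controls. Cyp26b1, which degrades retinoic acid, had 435, 413 and 411 counts in Meis1-OE and 1179, 2813 and 1534 in YFP-CTRL. Of the members, Mmp10, Mmp13, Mmp2 and Mmp9 averaged under 5 CPM and could not enter this search. The measure favours genes with large falls, and ranking by Pearson correlation, which ignores size, gave a list that shared 0 of them.

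The plot of fold changes under each way of processing shows how far the 9 tested members depended on it. The log2 fold change of Mmp3 lay between -5.58 and -4.02 under the settings tried and that of Mmp13 between -2.58 and -1.52. With 1 library left out, that of Mmp10 lay between -1.94 and -1.53. Those of Mmp2, Mmp14 and Timp3 changed sign under at least 1 setting.

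**Figure D5:**
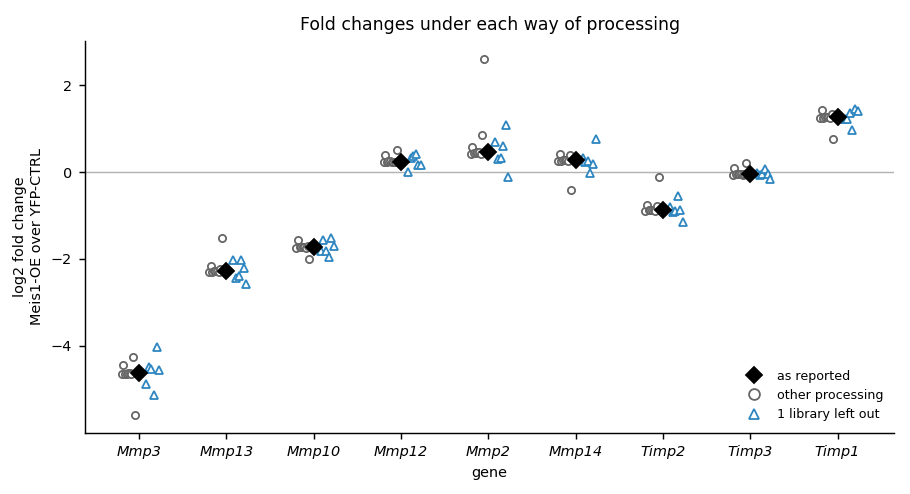
Log2 fold change of Meis1-OE over YFP-CTRL (y axis) of the 9 tested members as reported (black diamonds), under other processing (circles) and with 1 library left out (triangles). Mmp3, Mmp13, Mmp10 and Timp2 stay below 0 and Timp1 stays above 0 throughout, while Mmp2, Mmp14 and Timp3 have points on both sides.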

How the data were processed

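RNA-seq covered 6 libraries of aortic EC. The values the authors deposited are estimated counts for each gene symbol, without normalization. The labels name build mm10, and the study's methods name DESeq2; the aligner, counter and annotation of this experiment are not given in the sources used here. The labels number replicates while columns carry letters. Nothing links letters to numbers, and no label says that a letter marks a pair, so libraries were not paired. The p-values set the difference between the groups against the spread between these libraries only.

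Counts were rounded to whole numbers and fitted in R 4.3.3 with edgeR 4.0.16 (TMM, filterByExpr, quasi-likelihood test, Benjamini-Hochberg adjustment over 16065 genes). DESeq2 1.42.0 was an alternative. The fit was tested on simulated data with genes changed 2-fold or 4-fold. There edgeR recovered 29.6% of 2-fold and 86.5% of 4-fold changes, and 11 of its 123 calls were false. DESeq2 recovered 50% and 90%, and 35 of its 175 calls were false. A gene that did not pass may therefore still have changed by 2-fold. The simulation gave both groups the same dispersion for each gene. In the data the median SD of log2 CPM was 0.12 in Meis1-OE and 0.29 in YFP-CTRL, so these rates do not describe that unequal spread. At or under 3 counts in all libraries, a gene was treated as not detectable; this floor covers counting error only. Exon lengths and coding sequences came from an annotation of build NCBIM37, by symbol, and all MMP and TIMP genes matched, against 76.1% of tested genes, so levels were scaled by library and not over all lengths. Promoters came from RefSeq (GRCm38.p6).

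The members and gene lists were chosen with earlier results of these data known. A gene was left out of these lists after the fit and is not reported here. Genes named are the members, other tested MMP and TIMP genes, called genes of each list (at most 5, by adjusted p), the 5 profiles nearest to Mmp3, the 3 nearest tested genes beside the cluster on each side, and Meis1. Dhrs9 and the markers named were added to show what stood beside a result. As alternatives, the fit was repeated with size factors from DESeq2, without scaling beyond library totals, without the abundant transcript Gm26917, unfiltered, with a minimum of 10 counts in each library, with robust fitting, in DESeq2, and with a replicate block, the proliferation score as a covariate, each library left out, the longest transcript for length, and a 1 CPM pseudocount or Pearson correlation for the profiles. Figures were drawn with matplotlib 3.10.9.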

Additional observations from a re-analysis of the deposited data

How the results depend on the processing

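The log2 fold change of Mmp3 was below 0 under all 15 settings. These refit the libraries from which Mmp3 was chosen, so the kept sign is no support for its fall. The counts of calls varied with the setting. Genes higher and lower numbered 1048 and 179 with library totals, which shifted the median log2 fold change of all genes by 0.14, and 1124 and 1115 in DESeq2; 383 were higher with the proliferation score as a covariate. Leaving out 1 library gave 115 to 2717 genes higher and 16 to 2498 lower, the lowest without Meis1-OE B and the highest without YFP-CTRL C. Of members other than Mmp3, 0 were higher with DESeq2's size factors, without Gm26917, with at least 10 counts in every library and with the covariate, and 1 was lower with the covariate; leaving out 1 library gave 0 to 2 higher and 0 to 3 lower. Sign changes, none past the threshold, were seen with library totals for Timp3 (0.0907) and with the covariate for Mmp14 (-0.41), Timp3 (0.21), Mmp11 (0.25) and Mmp28 (0.67). With 1 library left out, log2 fold changes ran from -0.12 to 1.08 for Mmp2, -0.0309 to 0.750 for Mmp14, -0.162 to 0.0657 for Timp3, -0.594 to 0.0294 for Mmp11, -0.14 to 0.52 for Mmp19 and -0.66 to 0.35 for Mmp28. The causes were not tested. Of the 5 profiles nearest to Mmp3, 4 were kept with a pseudocount of 1 CPM and 0 with Pearson correlation. With the longest transcript for length, 7 of 10 members kept their rank in each group. With the column letter as a replicate block, 189 genes were lower, and of members other than Mmp3 0 were higher and 0 lower. The adjusted p by edgeR was then 0.0667 for Mmp10, 0.0559 for Mmp13 and 0.0710 for Timp1. Same-letter libraries deviated together with correlations of 0.267, 0.120 and 0.0697, but the Meis1-OE library C correlated best with YFP-CTRL B (0.214). Gm26917 made up a share of the counts that rose from A to C in both groups. It was 8.06%, 9.31% and 10.5% in Meis1-OE and 11.8%, 13.0% and 14.1% in YFP-CTRL. Letters were not treated as pairs, and whether they mark a shared batch was not tested. Depth limits Mmp9, Mmp10, Mmp1a and Timp4, whose counts were low.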
